A study of Mus musculus with 14 samples.

Results

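The genes described are the matrix metalloproteinases (MMPs), the ADAMTS proteases and the tissue inhibitors of metalloproteinases (TIMPs), 38 of the 56414 genes listed for these tumors. They were chosen by symbol, as 16 MMP genes, 18 ADAMTS genes and 4 TIMP genes, with no cut on their values but with earlier results of these data known. Messenger RNA was sequenced from 14 tumors of C57Bl/6 mice, with 1 library per tumor. M/D-driven tumors were endogenous mammary tumors of female mice that carried a slow-release pellet of 50 mg medroxyprogesterone acetate (MPA, a progestin), implanted at 6 to 9 weeks of age, and that received the carcinogen 7,12-dimethylbenz[a]anthracene (DMBA) by gavage 6 times, from week 1 to week 7. AT3 tumors grew from transplanted AT3 cells, a mouse mammary carcinoma line, placed under the skin of female mice, whose age is given only as a range over all mice of the study. Mice were randomized once tumors measured 0.25 cm2, and treated mice drank 0.5% nicotinamide (NAM), a form of vitamin B3, for 10 days. Both treated and untreated M/D-driven tumors had thus been exposed to MPA and DMBA, whereas all AT3 tumors descended from 1 cell line. The 4 groups held 4 untreated M/D-driven, 4 NAM-treated M/D-driven, 3 untreated AT3 and 3 NAM-treated AT3 tumors. NAM-treated M/D-driven tumor 1 came from experiment 2, the other M/D-driven tumors from experiment 1 and all AT3 tumors from experiment 3.

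MMPs are zinc-dependent enzymes that cut collagens, proteoglycans and other proteins of the extracellular matrix, and most are secreted as inactive precursors. ADAMTS proteases are related secreted enzymes with thrombospondin repeats, some of which cut the cartilage-type proteoglycans aggrecan and versican while others trim procollagen. TIMPs bind the active site of these enzymes and block it. In the mammary gland and its tumors, such genes are used by fibroblasts, vessel cells and leukocytes as well as by epithelial cells, so that the level in a piece of tissue does not tell which cells made the transcript. In bulk tumors, fewer cells of a type and less RNA per cell cannot be told apart.

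Values are normalized counts, that is reads per gene divided by a size factor of the tumor. Between 40936868 and 84178009 reads were recovered from a tumor. By their scale, the values appear to be normalized within each model. Values of single tumors are given as in the files, whereas tests, overlaps and levels per length between M/D-driven and AT3 tumors rest on a scale common to all 14. A call required that the unadjusted p of limma did not exceed 0.05 and that the change was 1.5 times or more, and adjusted p values refer to all genes tested in a comparison. NAM-treated M/D-driven tumor 1 stood apart from its label. It held the highest value of 8 of 9 precursor B cell markers among the 8 M/D-driven tumors (*Igll1* at 80368 against 0 to 29.0 in the others) and the lowest value of all 9 epithelial markers (*Epcam* at 932 against 16166 to 62247). For the comparison of treated with untreated M/D-driven tumors, the main counts, the called genes and several of the larger differences are therefore given with and without this tumor. For other members, such as *Mmp10*, *Mmp13* and *Timp4*, only the values of single tumors are given. The values without this tumor are at the same time those within experiment 1. The share of this tumor in the results was not tested beyond leaving it out.

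Of the 16 MMP genes, 6 lie side by side within 427 kb of chromosome 9 (7272514 to 7699585 on mm10, all on the plus strand), in the order *Mmp13* (collagenase 3), *Mmp12* (macrophage elastase), *Mmp3* (stromelysin 1), *Mmp10* (stromelysin 2), *Mmp8* (neutrophil collagenase) and *Mmp7* (matrilysin). Several of these neighbors were high in the same tumors, as described below. The stretches around their starts, from 250 bases before to 50 bases after, are therefore shown for all but *Mmp7*. They were taken from RefSeq on GRCm38.p6, and read 5′ to 3′ on the plus strand. Capitals mark TGAGTCA or its reverse complement TGACTCA, the letters bound by AP-1 factors, and no other motif was searched. *Mmp12* has 2 starts listed, the second of which is shown. The window of the first, chr9:7344147-7344446, does not hold these letters. The *Mmp12* locus counted here begins at 7344396, inside that first window.
Mmp13, chr9:7272264-7272563: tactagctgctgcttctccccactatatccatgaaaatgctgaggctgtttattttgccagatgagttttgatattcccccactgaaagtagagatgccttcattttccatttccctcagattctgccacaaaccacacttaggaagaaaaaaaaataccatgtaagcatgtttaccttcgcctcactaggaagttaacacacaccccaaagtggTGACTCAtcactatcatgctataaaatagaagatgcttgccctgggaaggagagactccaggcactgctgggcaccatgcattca
Mmp12, chr9:7347124-7347423: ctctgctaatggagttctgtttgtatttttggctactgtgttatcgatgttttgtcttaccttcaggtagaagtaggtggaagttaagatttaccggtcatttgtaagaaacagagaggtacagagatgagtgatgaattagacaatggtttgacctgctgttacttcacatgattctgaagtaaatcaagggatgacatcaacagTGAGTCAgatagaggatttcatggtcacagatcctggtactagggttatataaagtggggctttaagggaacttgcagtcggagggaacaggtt
Mmp3, chr9:7445572-7445871: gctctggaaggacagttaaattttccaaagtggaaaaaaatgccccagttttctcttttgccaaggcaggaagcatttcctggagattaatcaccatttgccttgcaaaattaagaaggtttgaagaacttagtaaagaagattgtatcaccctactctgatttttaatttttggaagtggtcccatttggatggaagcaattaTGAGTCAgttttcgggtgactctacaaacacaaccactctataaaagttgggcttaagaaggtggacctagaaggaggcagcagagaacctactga
Mmp10, chr9:7502092-7502391: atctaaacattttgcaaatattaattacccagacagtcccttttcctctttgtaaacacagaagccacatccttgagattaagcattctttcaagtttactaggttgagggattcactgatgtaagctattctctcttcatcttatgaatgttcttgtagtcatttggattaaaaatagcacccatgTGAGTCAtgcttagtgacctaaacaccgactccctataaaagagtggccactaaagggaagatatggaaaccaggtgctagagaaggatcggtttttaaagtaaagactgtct
Mmp8, chr9:7558179-7558478: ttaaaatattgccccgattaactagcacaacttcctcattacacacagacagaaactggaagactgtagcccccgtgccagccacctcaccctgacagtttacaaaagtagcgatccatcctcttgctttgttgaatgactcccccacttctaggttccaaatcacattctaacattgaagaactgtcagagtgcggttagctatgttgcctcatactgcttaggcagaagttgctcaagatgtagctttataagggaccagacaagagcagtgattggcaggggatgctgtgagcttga

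The letters occur once in the windows shown for *Mmp13*, *Mmp12*, *Mmp3* and *Mmp10*, beginning 35, 44, 46 and 63 bases before the start. The window of *Mmp8* does not hold them, whereas 1 of the 2 windows listed for *Mmp7* does, at 63 bases before the start. The motif was found in 5 of the 26 windows listed for 24 of the members, all 5 of this cluster, against 5.2% of the 32851 windows of the same length listed for all genes. A match describes these letters and not a site in use. Any relation of the motif to the tumors in which these genes were high was not tested.

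When levels were compared between genes, normalized counts on the common scale were divided by the length of the longest GENCODE transcript in kilobases. Values per kb and ranks between genes are approximate, since reads were counted on constitutive regions, whose length can differ. By this measure *Timp1*, *Timp2* and *Timp3* and a few MMPs led in both models, whereas *Timp4* was 29th of the 38 in untreated M/D-driven and last in untreated AT3 tumors. In untreated M/D-driven tumors, the order was headed by *Timp3*, which is held in the matrix, at 10008 ± 3119 per kb (SD, n = 4). *Timp1*, an inducible and soluble inhibitor, followed at 9518 ± 6052 per kb. *Mmp2* (gelatinase A) reached 6745 ± 3817, *Timp2*, which also takes part in activating gelatinase A, 5696 ± 1917, *Mmp3* 5419 ± 5768, and *Mmp14*, the membrane-type MMP that activates gelatinase A, 4994 ± 421 per kb. Neighbors in this order overlapped, although every value of *Timp3* (6688 to 14095) lay above every value of *Mmp14* (4442 to 5332). They were followed by *Mmp12* at 1620.4 ± 1902, *Mmp13* at 1475 ± 1461, *Mmp9* (gelatinase B) at 1445 ± 1327 and *Mmp15* (another membrane-type MMP) at 791 ± 743 per kb. The first ADAMTS genes were *Adamts1*, a protease of versican and aggrecan, at 577 ± 205 and *Adamts2*, which removes the N-propeptide of fibrillar procollagens, at 519 ± 107 per kb, in the 11th and 12th place.

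In untreated AT3 tumors, *Timp1* came first at 7429.5 ± 1543 per kb (SD, n = 3), ahead of *Timp3* at 5225 ± 408, *Timp2* at 4655 ± 399 and *Mmp2* at 4037 ± 1763 per kb. *Mmp14* was at 2080.4 ± 913 and *Mmp3* at 684 ± 246 per kb. The last places were held by *Mmp7*, *Adamts19* and *Timp4*, each below 1 per kb. The 4 TIMP genes together took 0.102 to 0.176% of all reads in untreated M/D-driven tumors and 0.0624 to 0.0878% in untreated AT3 tumors. The 16 MMP genes took 0.0802 to 0.175% and 0.0254 to 0.0585%, and the 18 ADAMTS genes 0.024 to 0.0273% and 0.0042 to 0.01%. The untreated tumors of the models did not overlap in any of these 3 shares.

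**Figure D1:**
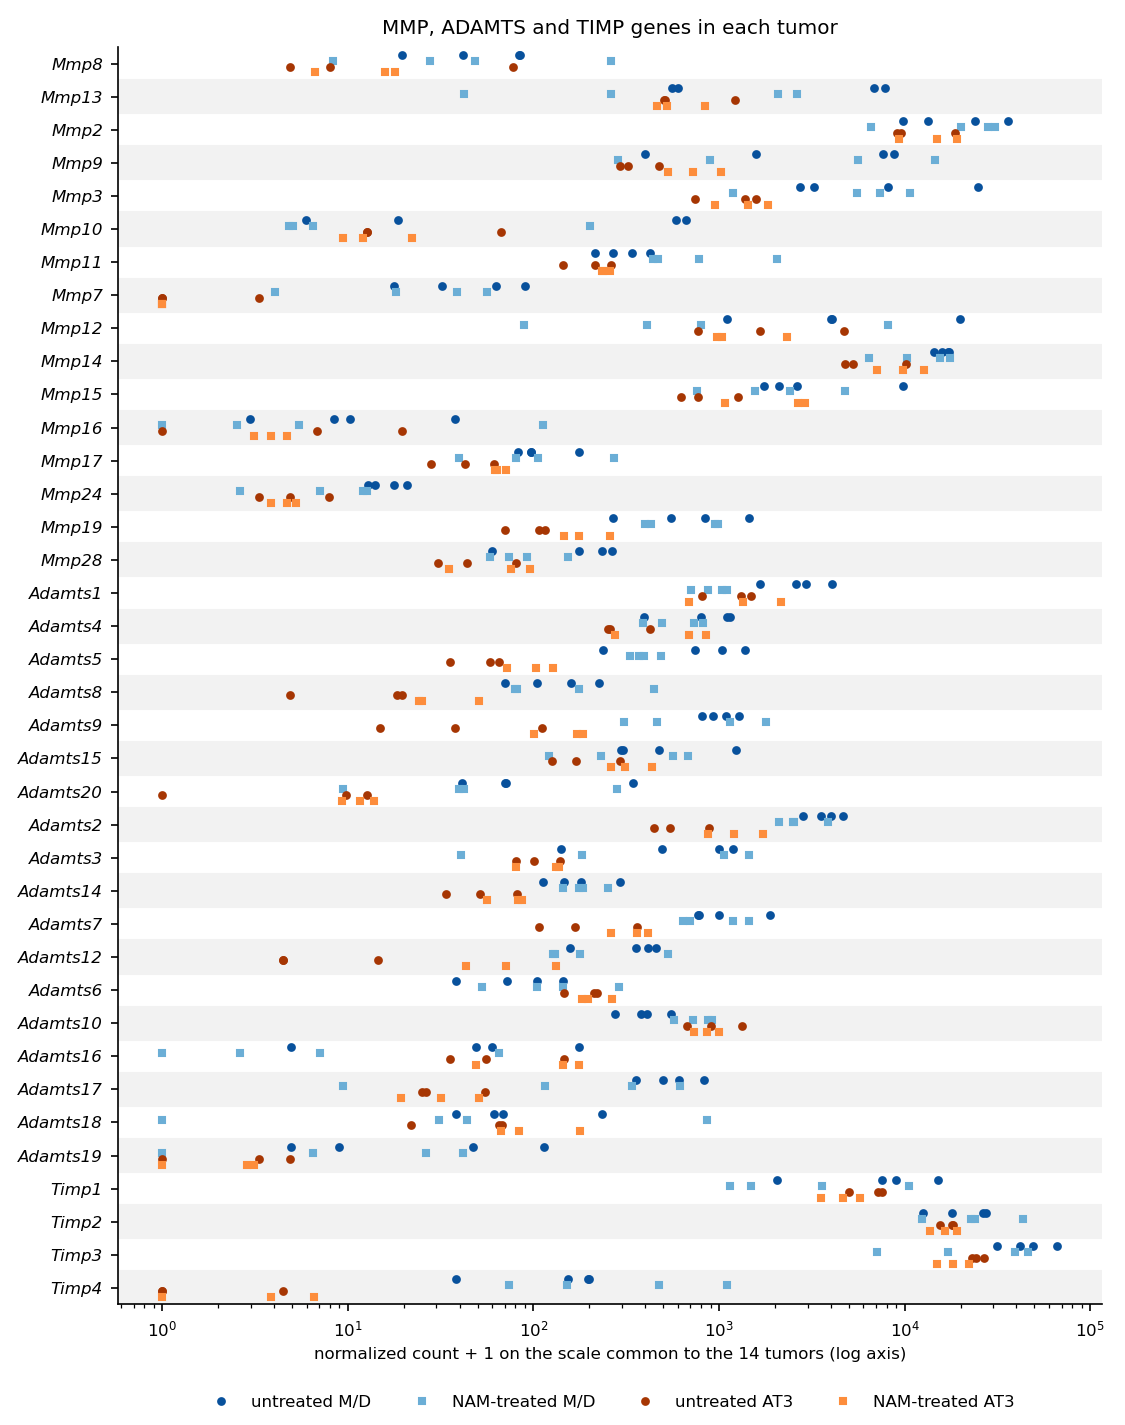
Normalized count plus 1 of each of the 38 genes on the scale common to the 14 tumors (log axis), with 1 point per tumor and colors for the 4 groups. The genes are grouped from collagenases to TIMPs, and *Timp4*, *Mmp7* and *Adamts12* show the widest gaps between untreated M/D-driven and untreated AT3 tumors.

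The first comparison asked how the family differed between the 2 untreated tumor types. Most of it was higher in M/D-driven tumors. Of 38 members tested, 25 were higher and 2 were lower in untreated M/D-driven than in untreated AT3 tumors, against 30.2% higher and 26.5% lower among all 21560 genes tested. The median log2 difference was 1.74 over the members and 0.04 over all genes. An adjusted p of at most 0.05 in limma was reached by 24 members in either direction, as by 51.5% of all genes. Upper quartile scaling, which moved the median of all genes to -0.49, left 18 members higher and 2 lower (21.3% and 38.3% of all genes), and scaling by total reads, with a median of 0.4, gave 26 and 1 (36.9% and 18.7%). Every untreated M/D-driven tumor lay above every untreated AT3 tumor for 22 members and below for 2 (28.2% and 25.9% of all genes). Together 27 members were called, where 56.7% of all genes were in either direction and 58.8% had an unadjusted p not above 0.05. The log2 difference was above 0 for 35 of 38 members, against 51% of all genes. As the models were also run as separate experiments, the model and the experiment cannot be told apart.

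All 7 proteases of proteoglycans were higher in M/D-driven tumors. *Adamts9* was at 1448, 894, 1235 and 1039.7 in untreated M/D-driven tumors 1 to 4 and at 11.6, 96.5 and 30.9 in untreated AT3 tumors 1 to 3. The groups lay far apart, by 4.67 on the log2 scale (SE 0.59, adjusted p = 0.000536 by limma on the common scale). *Adamts5*, the main aggrecanase of cartilage, was at 829.9, 261, 1567 and 1158 against 29, 55.8 and 48, a log2 difference of 3.79 (SE 0.58). *Adamts20* (4.21), *Adamts8* (3.4), *Adamts4* (1.4), *Adamts15* (1.38) and *Adamts1* (1.21) completed the group, with *Adamts15* past the unadjusted p only. The calls of *Adamts1*, *Adamts4* and *Adamts15* were lost under upper quartile scaling. They were also lost once the trend with transcript length and GC content was removed.

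The 2 proteases of cartilage oligomeric matrix protein (COMP) differed in the same direction. *Adamts12* was at 399, 173, 518 and 459.5 in untreated M/D-driven tumors 1 to 4 and at 2.9, 3.05 and 11.4 in untreated AT3 tumors 1 to 3. These AT3 values rest on 2, 3 and 14 reads, and the log2 difference was 5.59 (SE 0.59, adjusted p = 0.000243 by limma). *Adamts7* differed by 2.47 on the log2 scale. All 3 procollagen N-propeptidases were also higher, namely *Adamts2* by 2.63, *Adamts3* by 2.36 and *Adamts14* by 1.72 on the log2 scale. The calls of *Adamts3* and *Adamts14* were lost once the trend with transcript length and GC content was removed, and that of *Adamts2* was not. *Adamts2* was at 3171 to 5219.6 in M/D-driven and at 372 to 769 in AT3 tumors.

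Among the other ADAMTS genes, 2 were higher and 2 were lower. *Adamts17*, tied to fibrillin-rich fibers, was at 395 to 932 in untreated M/D-driven tumors and 20.3 to 46.7 in untreated AT3 tumors, 4.05 apart on the log2 scale. *Adamts19* was at 4.35 to 126 against 0 to 3.26, a log2 difference of 3.12 past the unadjusted p only. The members lower in M/D-driven tumors were *Adamts10*, likewise tied to fibrillin fibers, at 302 to 624 against 565 to 1156, and *Adamts6*, its closest relative, at 41.3 to 163 against 122 to 192 (log2 differences of -1.26 and -1.24). On the common scale neither gene overlapped between the groups. *Adamts16* and *Adamts18* did not pass, at log2 differences of -0.72 and 0.78.

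Of the MMPs, 9 of 16 were higher and 0 were lower. *Mmp7* had 69.6, 18.5, 101 and 34.6 normalized counts in untreated M/D-driven tumors 1 to 4 and 0, 2.03 and 0 in untreated AT3 tumors, where only 2 reads were found in all. With size factors matched, its pooled reads stood at a ratio of 64.6 (exact 95% interval of counting, 17.7 to 536), and at 81.5 by total reads. As reads were paired-end, the 2 reads may be mates of the same fragment. The interval counts each read as independent and may then be too narrow. *Mmp19*, a broad matrix protease, differed by 2.77, *Mmp9* by 2.84, *Mmp3* by 2.47, *Mmp15* by 1.88, *Mmp28* by 1.75, *Mmp24* by 1.66, *Mmp17* by 1.37 and *Mmp14* by 1.34 on the log2 scale. *Mmp14* varied little among untreated M/D-driven tumors, at 15903 to 19419, and at 4001 to 8839 in AT3 tumors. Although their log2 differences ran from 0.58 to 1.87, *Mmp8*, *Mmp13*, *Mmp2*, *Mmp10*, *Mmp11*, *Mmp12* and *Mmp16* did not pass.

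Among the inhibitors, *Timp4*, which is typical of heart and fat, was at 223, 169, 42.1 and 217 in untreated M/D-driven tumors 1 to 4 and at 2.9, 0 and 0 in untreated AT3 tumors. Its reads in the AT3 group came to 2, for a ratio of 172 with size factors matched (exact 95% interval of counting, 47.4 to 1422) and of 217 by total reads. These 2 reads may likewise be mates, which would make this interval too narrow. *Timp3* was higher by 0.89 on the log2 scale (SE 0.27), while *Timp1* (0.07) and *Timp2* (0.23) did not pass and were below 0 under upper quartile scaling (-0.43 and -0.27). Markers of other cells moved with these differences. All 5 adipocyte markers were higher in untreated M/D-driven tumors (summed level of 20885 to 64614 against 5476 to 8990.8), as were 4 of 6 pericyte and smooth muscle markers (47158 to 214460.3 against 12043 to 15769), 5 of 6 endothelial markers (7627 to 18310.3 against 3853 to 4759.8) and 4 of 8 fibroblast markers (96629 to 537788 against 74373 to 222213), with none of these markers under 10 in all tumors of a group. So were 6 of 9 epithelial markers (323550 to 1039314 against 81801 to 101777), 5 of 7 macrophage markers (102153 to 141476 against 35589 to 60983.5), 4 of 6 T and NK cell markers and 3 of 5 neutrophil markers tested, but 0 of 5 skeletal muscle markers and 1 of 9 precursor B cell markers, of which 1 was lower. These sums are as in the files, and 30.2% of all genes were higher. Their part in the result was not tested.

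The same comparison between the NAM-treated tumors, which was added after the data had been seen, gave 11 members higher and 1 lower in M/D-driven tumors of 37 tested (15.3% and 10.1% of all genes), and 17 and 2 without NAM-treated M/D-driven tumor 1 (20.2% and 13.2%). Over the genes with a known length, the log2 difference between untreated tumors had a Spearman rho of 0.32 with transcript length. Removal of the trend of each tumor with transcript length and GC content left 14 members higher and 2 lower (21.8% and 35.9% of all genes). The calls of *Mmp17*, *Mmp24*, *Mmp28* and *Timp3* were also lost both by this removal and under upper quartile scaling. Those of *Mmp15*, *Adamts3*, *Adamts14* and *Adamts19* were lost by this removal but not under that scaling.

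The second comparison asked what NAM changed in M/D-driven tumors. Only 3 of 38 members passed the thresholds, *Mmp11* and *Adamts10* higher and *Adamts1* lower, which is close to the 3.03% higher and 3.19% lower among all 21700 genes tested (6.22% in either direction). The groups did not overlap for 2 members above and 1 below (2.43% and 2% of all genes). No member reached an adjusted p of 0.05 by limma, as did 0.00461% of all genes, while these 3 had an unadjusted p of at most 0.05, as did 6.71% of all genes. By DESeq2 on the recovered reads, 1 member did, namely *Adamts1*, as did 179 of all 21700 genes. By edgeR, 0 members and 0 genes did. The log2 difference was above 0 for 8 of 38 members, against 51.1% of all genes, with a median of -0.62 against 0.01. Without NAM-treated M/D-driven tumor 1, it was above 0 for 13 of 38, the median was -0.24, and the same 3 members passed (2.85% and 2.33% of all genes). This tumor held the lowest value of 23 of the 38 members among the 8 M/D-driven tumors. Without untreated tumor 2, 1 member was higher and 6 were lower (1.98% and 5.25% of all genes), and without NAM-treated tumor 2, 2 were higher and 6 lower (5.5% and 6.92%). Upper quartile scaling kept the counts at 2 higher and 1 lower, while all genes went to 4.12% higher and 2.56% lower.

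Markers of other cells differed in this comparison too. All 9 epithelial markers had log2 differences below 0, with a median of -1.46 and 0 called, at summed levels of 323550 to 1039314 in untreated tumors and of 7881 to 650278 in NAM-treated tumors. The sum of 7881 was that of NAM-treated tumor 1, and the other NAM-treated tumors were at 265894 to 650278. All 5 adipocyte markers (median 0.82, 1 called higher) and all 5 skeletal muscle markers (median 3.64, 1 called higher) were above 0, as were 8 of 9 precursor B cell markers (0 called) and 6 of 6 endothelial markers (median 0.27, 0 called). Summed skeletal muscle markers overlapped, at 133 to 25597 in untreated and at 1065 to 239123 in NAM-treated tumors. Summed precursor B cell markers were at 359791 in NAM-treated tumor 1 and at 1222 to 2931 in the other M/D-driven tumors. Neutrophil markers were above 0 for 1 of 7, with a median of -0.77 and 0 called. Their part in the result was not tested.

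*Adamts1* was at 2933, 1829, 3323 and 4557 in untreated tumors 1 to 4 and at 781, 1137, 1239 and 1020.4 in NAM-treated tumors 1 to 4. Every NAM-treated tumor lay below every untreated tumor. The gene fell by 1.54 on the log2 scale (SE 0.3, unadjusted p = 0.000757 and adjusted p = 0.734 by limma). An exact two-sided permutation test of a single value gave p = 0.0286 for *Adamts1*, *Adamts10* and *Mmp11* alike, which is fixed by groups without overlap and is the smallest that 4 against 4 tumors allow. Within experiment 1 the log2 difference was -1.41, and over the 18 alternatives run it ran from -1.78 to -1.34 and passed the thresholds in each. In AT3 tumors *Adamts1* was at 1098, 1287 and 676 without and at 586, 1922 and 1202 with NAM, and the groups overlapped.

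*Adamts10* was at 425, 302, 624 and 457 in untreated tumors 1 to 4 and at 965, 800.1, 646 and 1067 in NAM-treated tumors 1 to 4. The groups did not overlap, although NAM-treated tumor 3 lay close to untreated tumor 3. The gene rose by 0.96 on the log2 scale (SE 0.29, unadjusted p = 0.00925 and adjusted p = 0.734 by limma). Within experiment 1 the log2 difference was 0.91, and it passed the thresholds in all 18 alternatives, between 0.79 and 1.13.

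*Mmp11* (stromelysin 3, often made by fibroblasts next to carcinoma cells) was at 241, 294, 384 and 475 in untreated tumors 1 to 4 and at 2292, 513, 883 and 515 in NAM-treated tumors 1 to 4. The NAM-treated tumors lay above the others, with the highest value in tumor 1, the one with precursor B cell markers. The log2 difference was 1.34 (SE 0.5, unadjusted p = 0.0269 and adjusted p = 0.734 by limma), and 0.87 within experiment 1. The call was lost without untreated tumor 1, untreated tumor 2 or NAM-treated tumor 3, where the difference was 1.18, 1.27 and 1.32 at unadjusted p = 0.07, 0.0593 and 0.0545 by limma, and with the replicate number as a block (1.34, unadjusted p = 0.0575 by limma).

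**Figure D2:**
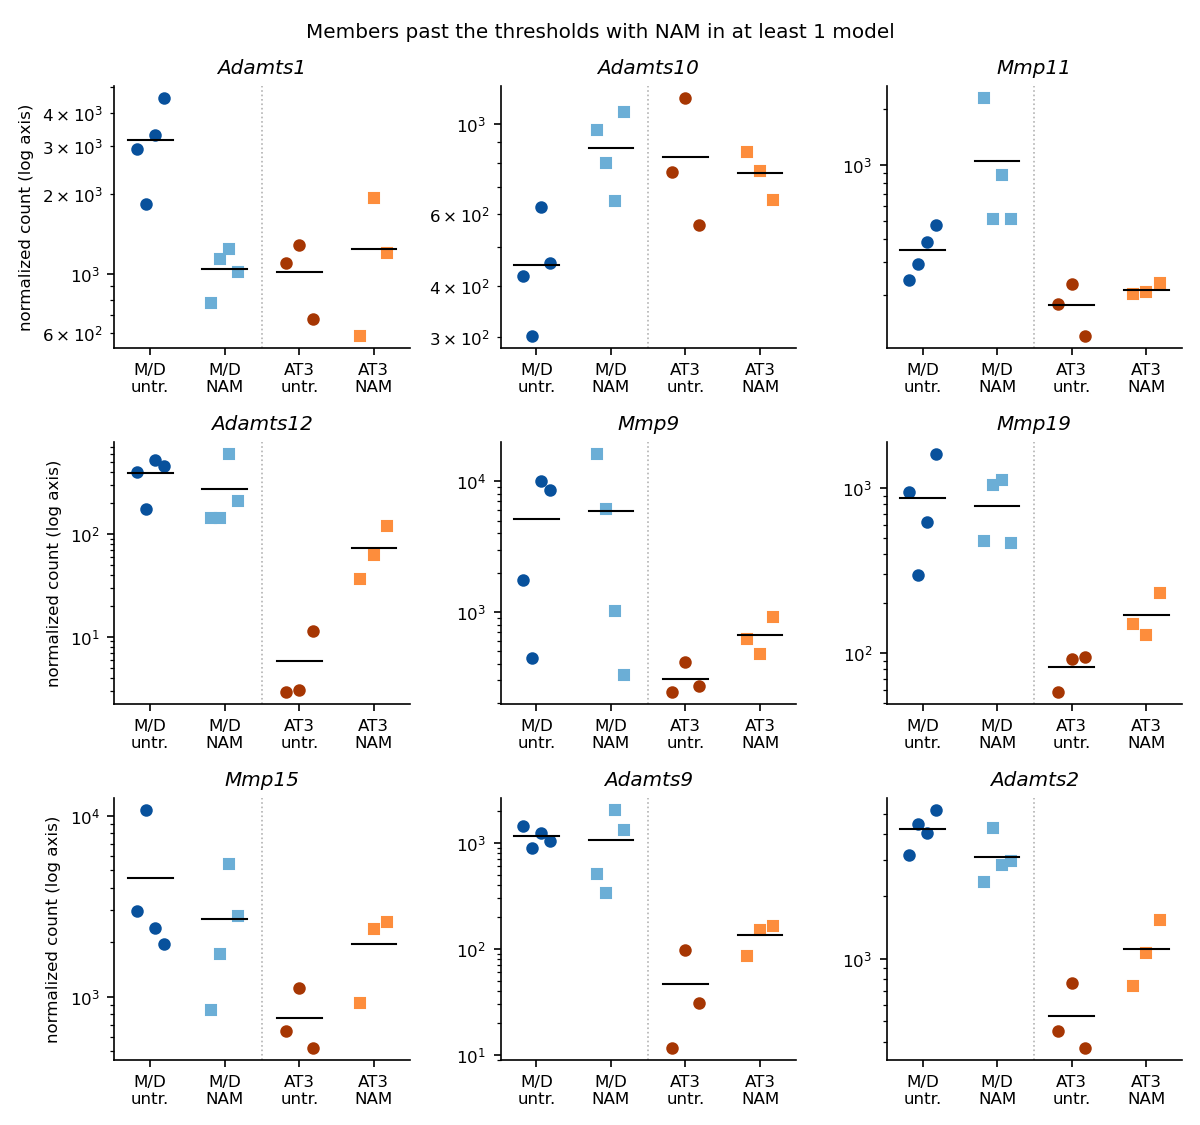
Normalized count (log axis) in each tumor for 9 of the 11 members past the thresholds with NAM in at least 1 model (*Adamts5* and *Adamts15* are left out), with lines at the group means. The models appear to have been normalized separately, so levels compare within a model. *Adamts1* lies below and *Adamts10* above all untreated M/D-driven tumors with NAM, and *Adamts12* goes from 2.9 to 11.4 up to 36.5 to 118 in AT3 tumors.

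The other 35 members did not pass in M/D-driven tumors, in part with large differences between single tumors. Among the 29 members with more than 3 reads in each of the 14 tumors, the highest M/D-driven tumor exceeded the lowest by a median of 7.32 times, against 3.28 times in AT3 tumors, and the span was wider in M/D-driven tumors for 22 of the 29. Without NAM-treated tumor 1 the median was 5.37 times, and the span was wider for 22. *Mmp12* spanned the most, from 97.6 to 22162. Its log2 difference with NAM was -2.63 (SE 1.36) at an unadjusted p = 0.087 by limma, and -1.64 without NAM-treated tumor 1. *Mmp13* was at 625, 664, 7736 and 8709.7 in untreated and at 45.8, 2901, 295 and 2433 in NAM-treated tumors 1 to 4. *Mmp10* was at 19.7, 5.43, 664 and 736 and at 4.24, 220.4, 4.6 and 6.42 in the same order. High and low tumors thus occurred in both groups for both genes.

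The same 3 tumors were high for several members. Untreated tumors 3 and 4 and NAM-treated tumor 2 held the 3 highest values of *Mmp8*, *Mmp10*, *Mmp12*, *Mmp13* and *Timp1* among the 8 M/D-driven tumors. For the counts below, these tumors were defined as the 3 with the highest values of *S100a8*, a calcium-binding protein of neutrophils and of stressed keratinocytes. It was at 132539, 71665 and 91728 in them and at 60.8 to 4244 in the other 5. Of all genes tested, 6.66% had their 3 highest values in these tumors, against 5 of 38 members, 5 of 7 neutrophil markers, 2 of 8 fibroblast markers, 1 of 6 endothelial markers and 1 of 9 epithelial markers, namely the basal keratin *Krt14*. The 5 neutrophil markers include *S100a8* itself, whose place is fixed by the choice of tumors. As these tumors were singled out after their values were seen, the counts are a description, and the part of neutrophils or basal epithelium in them was not tested. *Mmp3*, which lies between *Mmp12* and *Mmp10*, was at 3654, 3009.6, 9271 and 27811 in untreated and at 11846, 6124, 8318 and 1383 in NAM-treated tumors 1 to 4, so that NAM-treated tumor 1 held its second highest value. *Mmp9* likewise peaked in NAM-treated tumor 1, at 16171, ahead of 9968 and 8490.0 in untreated tumors 3 and 4 and 6129 in NAM-treated tumor 2, and was at 331 to 1767 in the other 4.

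**Figure D3:**
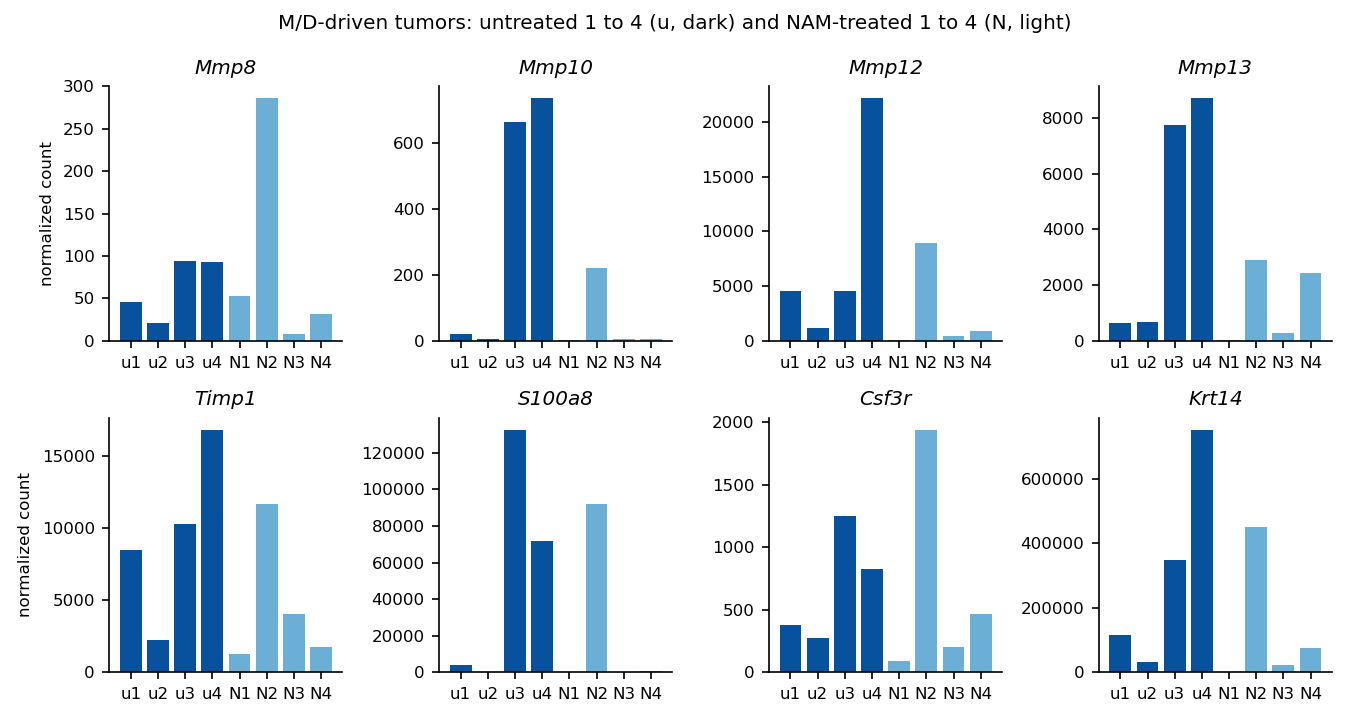
Normalized counts of *Mmp8*, *Mmp10*, *Mmp12*, *Mmp13*, *Timp1*, *S100a8*, *Csf3r* and *Krt14* in the 8 M/D-driven tumors, with untreated tumors as dark and NAM-treated tumors as light bars. Untreated tumors 3 and 4 and NAM-treated tumor 2 hold the 3 highest values in every panel, although *Mmp12* in untreated tumor 1 (4539) was close to untreated tumor 3 (4557). They were picked by *S100a8*, and the other genes shown were chosen for having this order.

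Among the inhibitors, *Timp1* was at 8444, 2264, 10241 and 16801 in untreated and at 1277, 11643, 4034 and 1738 in NAM-treated M/D-driven tumors 1 to 4. *Timp3* was at 35519.7, 73588, 47510.1 and 54779 and at 7864, 50988, 19349 and 45929.9. Both overlapped, with log2 differences of -1.24 (SE 0.81) and -1.06 (SE 0.58) that did not pass and were -0.8 and -0.52 without NAM-treated tumor 1. *Timp4* was highest in NAM-treated tumors 1 and 3, at 1227 and 535, and at 42.1 to 223 in the other 6. *Timp2* was at 13822 to 50796 over the 8 tumors, with a log2 difference of 0.22. Gelatinase A (*Mmp2*), at 7296 to 39699.7 over the 8 tumors, had a log2 difference of 0.01.

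Of the remaining members, *Adamts16*, *Adamts17* and *Adamts18* varied widely. *Adamts16* was at 4.35 to 196 in untreated and at 0 to 70.6 in NAM-treated tumors, and *Adamts17* at 395 to 932 and at 9.34 to 714. *Adamts18* was at 970.2 in NAM-treated tumor 3 and at 0 to 259 in the other 7. Their log2 differences were -2.82, -2.15 and -1.29, or -2.92, -0.91 and 0.44 without NAM-treated tumor 1, and none passed. *Adamts5* was at 829.9, 261, 1567 and 1158 in untreated and at 542, 431, 417 and 386 in NAM-treated tumors 1 to 4, overlapping through untreated tumor 2 (log2 difference -0.85, SE 0.52, and -0.94 without NAM-treated tumor 1). The procollagen N-propeptidase *Adamts2* was at 3171 to 5219.6 and at 2344 to 4256, a log2 difference of -0.46.

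*Adamts3*, which trims procollagen II and the precursor of the lymphatic growth factor VEGF-C, was at 1344, 1110.4, 558 and 155 in untreated and at 44.1, 201, 1196 and 1699 in NAM-treated M/D-driven tumors 1 to 4. Its highest and lowest tumors were both NAM-treated. *Adamts15*, another versicanase, was at 536, 1367, 345 and 328 and at 133, 255, 641 and 797 in the same order. The groups overlapped, as they did for *Mmp15*, whose highest values of 10795 and 5408 were in untreated tumor 2 and NAM-treated tumor 3. The aggrecanase *Adamts4* was at 435 to 1292 and at 430.4 to 898, and *Adamts7* at 868 to 2081 and at 709 to 1645. *Adamts6*, the closest relative of *Adamts10*, was at 80, 41.3, 163 and 116 and at 319, 113, 58.9 and 168, a log2 difference of 0.62 (SE 0.61) that did not pass.

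The lowest members stayed low with NAM in M/D-driven tumors. *Mmp24* (a membrane-type MMP best known from neurons) was at 13 to 22.5 in untreated and at 1.84 to 13.6 in NAM-treated tumors, and *Mmp16* at 2.17 to 41 and at 0 to 126. Matrilysin (*Mmp7*), a protease of glandular epithelium, was at 18.5 to 101 and at 3.4 to 60.9. Each of these groups overlapped. *Mmp28* (epilysin) was at 65.2 to 301 and at 63.7 to 167, and *Mmp17* at 92.4 to 194 and at 43.3 to 317.

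The third comparison asked what NAM changed in AT3 tumors. Of 32 members tested, 8 were higher and 0 were lower, against 12.2% higher and 10.9% lower among all 19281 genes (23.1% in either direction). *Mmp7*, *Mmp16*, *Mmp24*, *Adamts20*, *Adamts19* and *Timp4* were too low to be tested, at group means below 10. The log2 difference was above 0 for 23 of the 32, against 47.5% of all genes, with a median of 0.51 against -0.05. By family, 14 of 16 ADAMTS genes, 9 of 13 MMP genes and 0 of 3 TIMP genes were above 0, although *Timp2* came to 0.0075 under TMM scaling. No member reached an adjusted p of 0.05 by limma (0.00519% of all genes) or edgeR, and 8 had an unadjusted p of at most 0.05 by limma (24.3% of all genes). By DESeq2, 4 members reached an adjusted p of 0.05, as did 2047 of all 19281 genes. The groups did not overlap for 7 members above (11.7% of all genes) and 0 below (11%). With 3 against 3 tumors an exact permutation test of a single value cannot go below p = 0.1.

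Transcript length moved with these results. Over the genes tested, the log2 difference in AT3 tumors had a Spearman rho of 0.59 with the length of the longest transcript, against -0.04 in M/D-driven tumors (correlations across genes, which are not independent). The deviation of a tumor from the mean of its model had a rho with length of -0.53, -0.0043 and -0.51 in untreated and -0.2, 0.56 and 0.59 in NAM-treated AT3 tumors 1 to 3. NAM-treated AT3 tumor 3 held the highest value of 21 of the 38 members among the 6 AT3 tumors, and untreated tumors 1 and 3 the lowest value of 16 and 13. The number of members called higher was 2 without NAM-treated tumor 3 (4.68% of all genes), 4 without untreated tumor 1 or 3 (6.47% and 7.34%) and 14 without untreated tumor 2 (18.2%). Lengths were known for 85.2% of the genes. Removal of the trend with length and GC content left 5 members higher (*Mmp9*, *Mmp3*, *Mmp15*, *Mmp19* and *Adamts12*) and 1 lower (*Timp3*), against 7.88% and 7.91% of all genes, and a median of 0.19 over the members. Upper quartile scaling, which moved the median of all genes to -0.26, gave 6 members higher and 2 lower (*Timp1* and *Timp3*), against 7.52% and 18% of all genes.

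**Figure D4:**
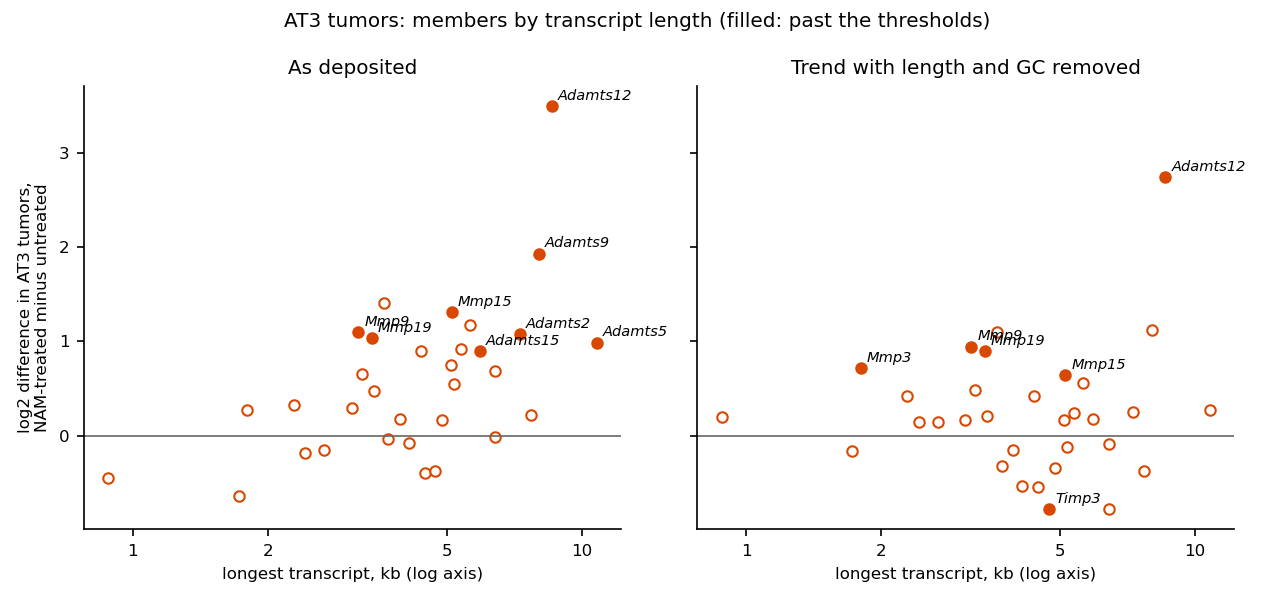
Log2 difference between NAM-treated and untreated AT3 tumors for the 32 members tested, against the length of the longest transcript (log axis), from the values as deposited (left) and after removal of the trend with length and GC content (right). Filled points passed the thresholds: 8 higher on the left, and 5 higher and 1 lower on the right, with *Adamts12* at 3.5 and 2.74.

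*Adamts12* was at 2.9, 3.05 and 11.4 in untreated AT3 tumors 1 to 3 and at 36.5, 62.1 and 118 in NAM-treated AT3 tumors 1 to 3, from 2, 3 and 14 and from 30, 66 and 143 reads. Every NAM-treated tumor lay above every untreated tumor. The gene rose by 3.5 on the log2 scale (SE 0.68, unadjusted p = 0.000609 and adjusted p = 0.166 by limma), and passed the thresholds in all 16 alternatives, between 2.74 and 4.04. On the common scale it was at 81.4 with NAM, below the 344.7 of untreated M/D-driven tumors. In M/D-driven tumors it was at 399, 173, 518 and 459.5 without and at 142, 142, 597 and 206 with NAM, and the groups overlapped.

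*Mmp9* was at 243, 414 and 269 in untreated and at 618, 473 and 920.3 in NAM-treated AT3 tumors 1 to 3. The groups did not overlap. The gene rose by 1.1 on the log2 scale (SE 0.32, unadjusted p = 0.00783 and adjusted p = 0.166 by limma), and passed in all 16 alternatives, between 0.85 and 1.33. *Mmp9* and *Adamts12* were the 2 members called in every alternative run on AT3 tumors.

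*Mmp19* was at 58, 92.4 and 95.2 in untreated and at 149, 129 and 230.5 in NAM-treated AT3 tumors 1 to 3, without overlap and with a log2 difference of 1.03 (SE 0.36). Of its exon bases, 28.3% are shared with genes on the opposite strand, whose reads cannot be told apart if strand was not used, as the counting does not state. The same holds for 13.8% of *Adamts9* and 21.3% of *Timp3*. *Mmp15* was at 643, 1109 and 518 in untreated and at 919.8, 2377 and 2593 in NAM-treated tumors, with untreated tumor 2 above NAM-treated tumor 1 (log2 difference 1.31, SE 0.43). The calls of both genes were lost without NAM-treated tumor 3, at log2 differences of 0.79 and 1.04. The call of *Mmp19* was lost without untreated tumor 1 (0.8) and that of *Mmp15* without untreated tumor 3 (1.08).

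The 4 other members called were all ADAMTS genes of long transcripts, with lengths of 5928 to 10791 bases. *Adamts9* was at 11.6, 96.5 and 30.9 in untreated and at 85.1, 151 and 164 in NAM-treated AT3 tumors 1 to 3, and untreated tumor 2 overlapped with NAM-treated tumor 1. Its log2 difference was 1.93 (SE 0.68). The second locus listed under this symbol was at 5.8, 13.2 and 0 and at 14.6, 53.6 and 86.7 in the same order. *Adamts2* was at 452, 769 and 372 and at 744, 1068 and 1539 (1.08), *Adamts5* at 29, 55.8 and 48 and at 60.8, 91.3 and 113 (0.99), and *Adamts15* at 104, 254 and 142 and at 267, 233 and 389.9 (0.89). Of these, *Adamts5* had no overlap between the groups and the other 3 did. None of the 4 passed once the trend with length was removed, at log2 differences of 1.12, 0.25, 0.27 and 0.18, or without NAM-treated tumor 3, at 1.75, 0.82, 0.79 and 0.68.

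*Mmp17*, *Adamts8* and *Adamts18* also had NAM-treated AT3 tumors above all untreated tumors without passing the thresholds, at log2 differences of 0.69, 1.41 and 1.17. *Mmp14* was at 4432, 8839 and 4001 in untreated and at 6096, 8773 and 11336 in NAM-treated tumors 1 to 3 (0.65, SE 0.35). Collagenase 3 (*Mmp13*) was at 409 to 1022 over the 6 tumors and *Mmp12* at 668 to 3945, with log2 differences of -0.16 and -0.4. *Mmp8* was at 3.26 to 63.8 and *Mmp10* at 7.53 to 55.1, with untreated tumor 1 the highest for both. None of the inhibitors passed, with *Timp1* at 4361 to 6292 and at 3159 to 4939, *Timp2* at 13039.8 to 15632 and at 11663 to 17100.2 and *Timp3* at 19339 to 23389 and at 13424 to 19809.5, and log2 differences of -0.45, -0.03 and -0.38.

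Markers of vessel cells moved with NAM in AT3 tumors as well. Of 6 pericyte and smooth muscle markers, 4 were higher and 0 lower (summed level of 12043 to 15769 in untreated and of 16378 to 23006 in NAM-treated tumors), and of 6 endothelial markers 4 were higher and 0 lower (3853 to 4759.8 and 5200.2 to 7779). Of 8 fibroblast markers 1 was higher (74373 to 222213 and 115712 to 309846), and of 7 macrophage markers 3 were higher (35589 to 60983.5 and 38625 to 56909.6). The other 4 macrophage markers were below 0, and the list had a median of -0.09. Of 9 epithelial markers 1 was higher and 2 were lower (median -0.53), and of 8 precursor B cell markers tested 1 was higher and 3 were lower (median -0.81). Among all genes 12.2% were higher and 10.9% lower. Their part in the result was not tested.

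The fourth comparison asked whether the difference made by NAM itself differed between the models, by the interaction term over the 14 tumors. It was lower in M/D-driven than in AT3 tumors for 6 of 38 members and higher for 1, against 7.9% and 6.97% of all 22710 genes tested (14.9% in either direction). It was above 0 for 5 of 38 members and 51.4% of all genes. No member and 0% of all genes reached an adjusted p of 0.05 by limma, nor did any member by edgeR, and 7 had an unadjusted p of at most 0.05 by limma (14.9% of all genes). By DESeq2, 2 members reached an adjusted p of 0.05, as did 833 of all 22710 genes. The median was -1.09 over the members and 0.04 over all genes. Removal of the trend with length and GC content left 1 member higher and 2 lower (5.74% and 4.97% of all genes), and upper quartile scaling 1 higher and 4 lower (14% and 4.11%). Leaving out 1 tumor at a time gave 3 to 10 members lower. It was 10 without untreated M/D-driven tumor 2 (9.13% of all genes lower). It was 3 without untreated AT3 tumor 1 or NAM-treated AT3 tumor 3 (5.31% and 4.25%). Without NAM-treated M/D-driven tumor 1, 1 was higher and 5 were lower (7.32% and 9.55% of all genes), with *Mmp14* no longer called. Since the same tumors enter, these values are not independent of the comparisons within a model.

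*Adamts12* differed the most, with -0.68 in M/D-driven and 3.5 in AT3 tumors and a difference of -4.17 on the log2 scale (SE 0.9, adjusted p = 0.183 by limma). *Adamts1* had -1.54 in M/D-driven and 0.17 in AT3 tumors (-0.04 under upper quartile scaling), a difference of -1.71 (SE 0.56). Both passed in all 24 alternatives. *Adamts2*, *Adamts9*, *Adamts5* and *Mmp14* had differences of -1.54, -2.39, -1.83 and -1.12, with values below 0 in M/D-driven and above 0 in AT3 tumors, and none of the 4 passed after removal of the trend with length. The call of *Mmp14* was lost in 14 of the 24 alternatives, edgeR, DESeq2 and upper quartile scaling among them, that of *Adamts9* in 6, with edgeR and DESeq2 among them, that of *Adamts5* in 4 and that of *Adamts2* in 1. *Adamts10* was the member with a higher effect in M/D-driven tumors, 0.96 against -0.08 in AT3 tumors, for a difference of 1.04 (SE 0.43). Its call was lost without untreated M/D-driven tumor 2, NAM-treated M/D-driven tumor 4, untreated AT3 tumor 2 or NAM-treated AT3 tumor 3, where it was 0.77 to 0.94.

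**Figure D5:**
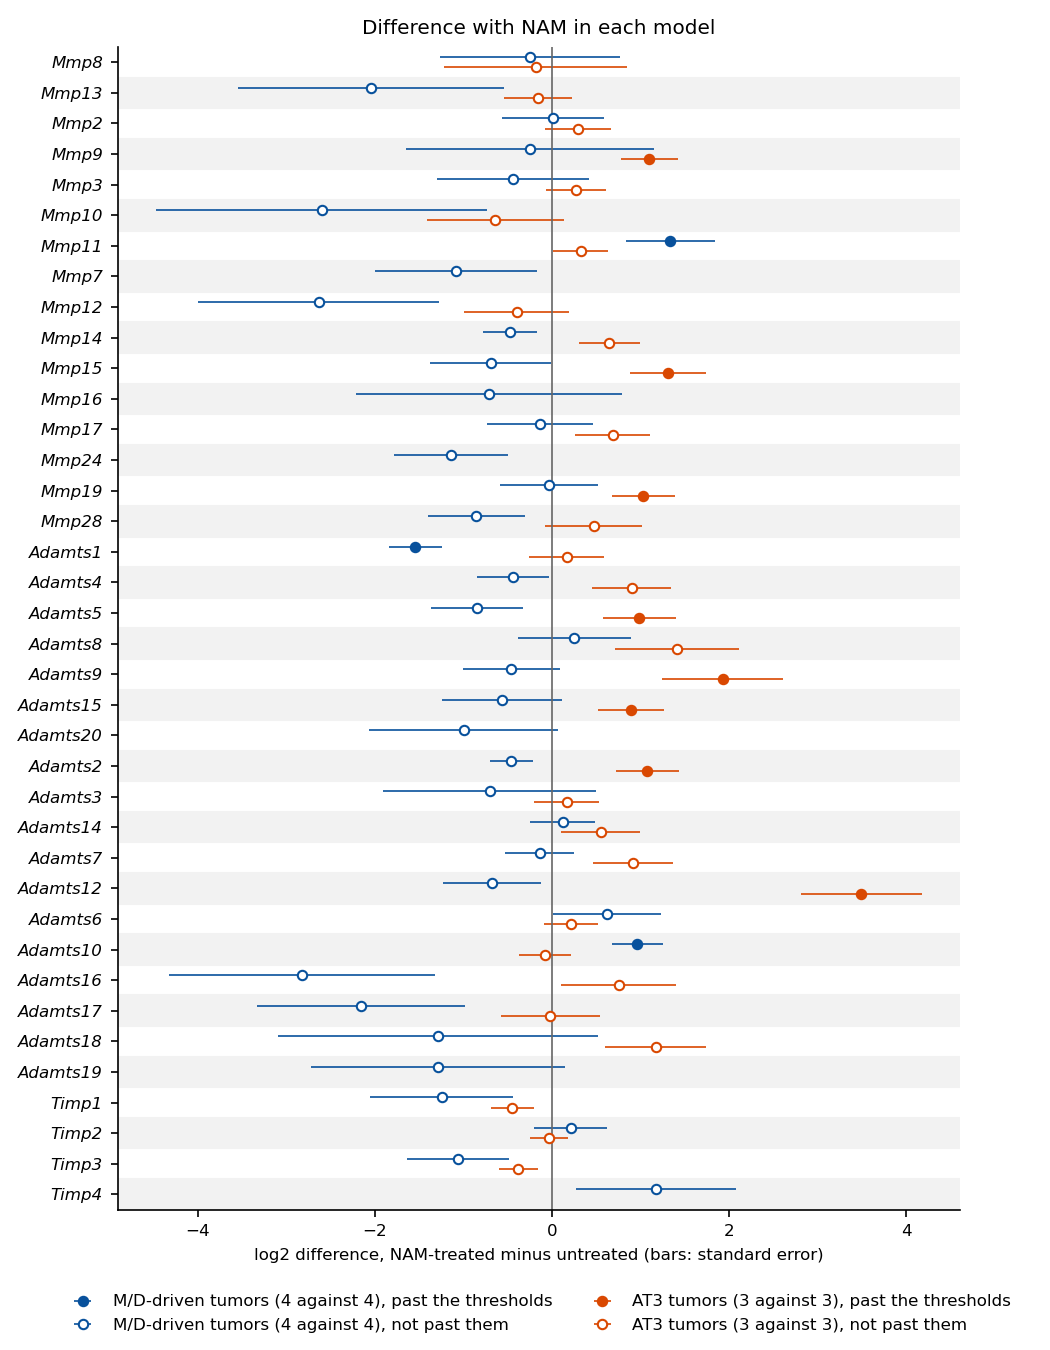
Log2 difference between NAM-treated and untreated tumors for each member, with its standard error, in M/D-driven (blue) and AT3 (orange) tumors. Filled points passed the thresholds, 3 in M/D-driven and 8 in AT3 tumors, and the 6 members without an orange point were too low in AT3 tumors to be tested.

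Other genes of matrix turnover were taken from fixed lists. In AT3 tumors, 5 of 8 ADAM sheddases tested were higher with NAM and 0 lower, where 12.2% of all genes were higher and differences followed transcript length (rho of 0.59), with log2 differences of 1.06 for *Adam10*, 1.03 for *Adam17* (the sheddase of TNF), 2.06 for *Adam12* and 0.88 for *Adam9* ahead of *Adam19*. *Adam10* was at 1367, 1384 and 1225 in untreated and at 1887, 3294 and 3356 in NAM-treated tumors 1 to 3. The groups did not overlap. *Furin*, which activates membrane-type MMPs and ADAMTS proteases by cutting their propeptide, was at 2287, 3388 and 2284 and at 4513, 8192 and 6979.7 in the same order, a log2 difference of 1.29, and was the only gene called of 9 tested in the list of MMP activation, inhibition and clearance.

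The crosslinking enzyme *Lox* (1.43, of 8 matrix proteases and procollagen-processing genes), the plasminogen activator *Plat* (0.92, of 7 genes of plasminogen activation) and the proteoglycans *Fmod* and *Bgn* (1.79 and 1.17, of 7) were also higher with NAM in AT3 tumors, and the plasmin inhibitor *Serpinf2* was lower (-1.67). No gene was called among 7 ADAMTS-like proteins, 7 cathepsins and 3 further MMPs tested. In M/D-driven tumors, 2 of the 61 listed genes tested were called, against 6.22% of all genes. *Adam33* was at 53, 23.9, 56.3 and 76.5 in untreated and at 233, 192, 102 and 85.0 in NAM-treated tumors 1 to 4, above all untreated tumors (log2 difference 1.52). *Ctsd*, the lysosomal protease cathepsin D, was lower by a log2 difference of -0.98. The interaction was called for 8 of the 61 listed genes tested, all lower in M/D-driven tumors, where 7.9% of all genes were lower and 6.97% higher. These 8 were *Adam17*, *Adam10*, *Adam9*, *Furin*, *Thbs1*, *Plau*, *Lox* and *Bgn*. Over the genes with a known length, the interaction had a rho of -0.37 with transcript length. Between untreated tumors, 7 of 9 ADAM sheddases were higher in M/D-driven tumors and 0 lower, as were 5 of 8 matrix proteases and procollagen-processing genes, whereas cathepsins had 2 of 7 higher and 0 lower, against 30.2% of all genes higher.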

How the data were processed

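Libraries were prepared from polyadenylated RNA of 14 tumors (Truseq mRNA, paired-end reads of 75 bases). Per the labels and the methods of the study, the authors aligned reads with STAR 2.4.0 to mm10. They counted reads on the constitutive regions of Mouse FAST DB genes and normalized the counts with DESeq2. That size factors were taken within each model is inferred from the values. Medians of ratios among the tumors of a model were 0.975 to 1.02. Over all 14 tumors they were 1.1 to 1.17 in M/D-driven and 0.837 to 0.895 in AT3 tumors. The deposited values are therefore a signal, normalized counts per gene, and not raw counts. Strandedness is not given in the sources used here. As values are multiples of what 1 read is worth, whole reads were recovered for 100% of values (within 0.01 of a whole number), for 40936868 to 84178009 reads per tumor. No column was left out.

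The members and lists were chosen with earlier results of these data known. The genes of matrix turnover to be named were, by rule, up to 4 per list and comparison with the smallest p, and all members were described. Log2(value + 1) of genes whose mean reached 10 in 1 or more groups was tested by limma 3.58.1 with trend in R 4.3.3, and p values were adjusted by Benjamini-Hochberg over all genes tested. The fold changes understate those of low genes. A call needed an unadjusted p not above 0.05 and a change of 1.5 times or more. Within a model, only its tumors entered. For the untreated tumors of both models and for the interaction, the untreated groups and all 14 tumors entered. For levels and for the comparison of models, recovered reads were scaled by medians of ratios over all 14 tumors. The p values measure the spread between tumors, each from a separate library, and the intervals on reads cover counting error only. These intervals treat reads as independent, which mates of a pair are not if both were counted. Alternatives were pseudocounts of 0.5 and 5, no filter or a mean of 50, other scalings, edgeR 4.0.16 and DESeq2 1.42.0 on recovered reads, a replicate block, removal of a spline (4 degrees of freedom) on transcript length and GC content, and omission of each tumor. The fits were tested on simulated data. *Adamts9* is listed at 2 loci, and the one with the higher mean was used. Promoters were found for 24 of 38 members.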

Additional observations from a re-analysis of the deposited data

Results flagged for a closer look

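A single tumor lay far from the other 3 of its group, by Dixon's test at the 95% level, in 13 of 76 combinations of a gene and an M/D-driven group, or 17.1%. The same was true of 13% of the combinations over all 21700 genes tested, mostly also as high values, since counts are skewed. Chance gives about 1 in 20 for normally distributed values, and on log2(value + 1) 2 of 76 combinations stood out (2.63%, against 7.56% over all genes). NAM-treated tumor 2 was far above the other 3 for *Mmp8* (286), *Mmp10* (220.4), *Mmp12* (8901) and *Adamts16* (70.6). NAM-treated tumor 3 was far above for *Mmp16* (126), *Adamts20* (317), *Adamts12* (597) and *Adamts18* (970.2). Among untreated tumors, tumor 2 stood out for *Mmp15* (10795), *Mmp17* (194) and *Adamts18* (259), tumor 4 for *Mmp12* (22162) and tumor 1 for *Adamts20* (386). All 13 were the highest value of their group.

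The difference made by NAM differed between M/D-driven and AT3 tumors, at an unadjusted p of at most 0.05 of the interaction term and not at an adjusted p, for 7 members. On the log2 scale it was 1.04 for *Adamts10*, -1.12 for *Mmp14*, -1.71 for *Adamts1*, -1.83 for *Adamts5*, -2.39 for *Adamts9*, -1.54 for *Adamts2* and -4.17 for *Adamts12*.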

How the results depend on the processing

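Counts of members past the thresholds were compared over all alternatives. With NAM in M/D-driven tumors (2 higher, 1 lower, 0 at an adjusted p), edgeR gave 2 lower (2.97% of all genes). DESeq2 gave 2 lower and 1 at an adjusted p (3.71% and 179 of all genes). Leaving out 1 tumor gave 1 to 2 higher and 1 to 6 lower, against 1.81 to 5.5% and 1.62 to 6.92% of all genes. With NAM in AT3 tumors (8, 0 and 0), upper quartile scaling gave 2 lower (18% of all genes) and DESeq2 4 at an adjusted p (2047 genes). Removal of the trend with length and GC content gave 5 higher and 1 lower (7.88% and 7.91%). Leaving out 1 tumor gave 2 to 14 higher and 0 to 1 lower, against 4.68 to 18.2% and 3.69 to 17.5% of all genes. It also gave 0 to 8 members at an adjusted p, against 0 to 2520 genes. For the interaction (1, 6 and 0), DESeq2 gave 2 at an adjusted p (833 of all genes), and removal of the trend 2 lower (4.97%). Leaving out 1 tumor gave 0 to 1 higher and 3 to 10 lower, against 3.84 to 9.98% and 4.25 to 10.8% of all genes. It also gave 0 to 2 members at an adjusted p, against 0 to 535 genes. Between untreated tumors (25, 2 and 24), edgeR and scaling by total reads gave 1 lower (24.9% and 18.7% of all genes). Removal of the trend gave 14 higher (21.8%) and 15 at an adjusted p. Leaving out 1 tumor gave 22 to 29 higher and 1 to 2 lower, against 26.3 to 31.7% and 23.2 to 26.8% of all genes. It also gave 15 to 24 members at an adjusted p, against 8289 to 11592 genes. Of all genes, 9926 of 18141 were at an adjusted p after removal of the trend. Without untreated AT3 tumor 3, where 15 members were, 8812 of 21892 genes were. With NAM-treated in place of untreated tumors, 11 were higher, 1 lower and 3 at an adjusted p (15.3%, 10.1% and 1677 of all 21287 genes). With those of experiments 1 and 3 alone, 11 were at an adjusted p (3617 of all 21136 genes). Both were chosen after seeing the data. The cause was not tested.

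Between models, directions reversed for *Mmp17* (-0.033) once the trend was removed, for *Mmp15* (-0.076), *Adamts1* (-0.46) and *Adamts15* (-0.031) with NAM-treated tumors, and for *Adamts1* (-0.33) with those of experiments 1 and 3. Of the counts under alternatives, 187 stayed within 1.5 times and 47 did not, and of the values of single members, 762 kept their call, 118 lost it and 5 reversed.

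Deviations of same-numbered tumors had an r of -0.44 to 0.11 in M/D-driven and of -0.16 to 0.26 in AT3 tumors. Other pairs had a mean r of 0.05 and -0.04. Whether the numbers pair tumors cannot be told from so few pairs, and the main fits did not use them. A replicate block gave 1 higher and 2 lower in M/D-driven tumors (2.21% and 2.41% of all genes). In AT3 tumors it gave 12 members higher and 3 at an adjusted p. Of all 19281 genes, 14% were then higher and 1296 at an adjusted p, against 1 without the block. Between models it gave 15 members at an adjusted p, and 7815 of all 21560 genes. Numbers are small, at 3 or 4 tumors a group, and the members with few reads in AT3 tumors (*Mmp7*, *Timp4*) are limited by depth.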
